A study of Mus musculus with 6 samples.

Results

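The 6 keratins described here are Krt7, Krt8, Krt18, Krt19, Krt20 and Krt15, taken by symbol from a table of 14254 genes. All 6 were listed, and all 6 passed the filter on low values (10 normalised counts or more in 3 or more libraries). Krt15 passed it only through the knockdown, since 1 of its 3 control libraries reached that level. RNA was sequenced from organoids of the mouse pancreatic ductal adenocarcinoma line KPF_5.3G, which are tumour cells grown in medium that holds Noggin, R-Spondin-1, gastrin, EGF and hFGF-10. Organoids carried a lentiviral control hairpin (shCtrl, 3 libraries, genotype label WT) or a hairpin against Jag1 (shJag1_3, 3 libraries, genotype label Jag1 knockdown), which encodes a Notch ligand. Every library comes from this single line and a single Jag1 hairpin, and the labels do not say what a replicate number stands for.

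Keratins are the intermediate filament proteins of epithelial cells. A filament is built from pairs of a type I and a type II chain, so that neither type polymerises alone. Krt8 and its partner Krt18 are the founding pair of simple epithelia. Krt7 (type II) and Krt19 (type I) are added in ducts, the latter being the standard marker of pancreatic duct and ductal carcinoma. Krt20 (type I) marks intestinal and gastric surface epithelium, and Krt15 (type I) marks basal cells of stratified epithelia and some stem cell niches.

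In mouse, type II keratin genes lie on chromosome 15 and type I genes on chromosome 11, with Krt18 as the type I exception beside Krt8. In GRCm38, Krt7 (ENSMUSG00000023039) spans chr15:101411043-101430313 on the plus strand. Krt8 (ENSMUSG00000049382) spans chr15:101996698-102004482 on the minus strand, and Krt18 (ENSMUSG00000023043) spans chr15:102028180-102032027 on the plus strand. They are transcribed away from each other across a gap of 23697 bases that contains no other whole annotated gene. Krt20 (ENSMUSG00000035775) lies at chr11:99428403-99438150, Krt15 (ENSMUSG00000054146) at chr11:100131758-100135928 and Krt19 (ENSMUSG00000020911) at chr11:100140810-100148665, all on the minus strand. Krt15 and Krt19 are direct neighbours, 4881 bases apart. The stratified keratin gene Krt13 lies on the other side of Krt15, 10191 bases from it.

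The RefSeq promoter table (GRCm38.p6) held 4 of the 6 members, and not Krt15 and Krt19. The 250 bases before the RefSeq start were searched because 2 motifs bear on genes measured here. The E-box CAGGTG, which reads as CACCTG on the other strand, is the site of the Zeb and Snail repressors. The letters TATAAA form the core of a TATA box. Both are in capitals, were searched on both strands, and do not overlap in these windows. RefSeq and GENCODE place some starts differently: the Krt7 window lies inside the gene span given above, and the windows of Krt8 and Krt18 run into theirs. Bases that GENCODE annotates as 5′ UTR are not printed, which leaves out 140 bases of the Krt8 window, 36 of Krt18 and 1 of Krt7. Printed are chr15:102004483-102004592 (minus strand) for Krt8, chr15:102027966-102028179 (plus) for Krt18, chr15:101412153-101412401 (plus) for Krt7 and chr11:99438154-99438403 (minus) for Krt20.
Krt8: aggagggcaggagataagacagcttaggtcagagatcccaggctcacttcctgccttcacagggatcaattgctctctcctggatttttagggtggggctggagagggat
Krt18: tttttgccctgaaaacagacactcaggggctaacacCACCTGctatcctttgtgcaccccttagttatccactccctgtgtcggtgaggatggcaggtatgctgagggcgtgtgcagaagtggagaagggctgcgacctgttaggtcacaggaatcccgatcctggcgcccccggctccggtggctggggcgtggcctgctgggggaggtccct
Krt7: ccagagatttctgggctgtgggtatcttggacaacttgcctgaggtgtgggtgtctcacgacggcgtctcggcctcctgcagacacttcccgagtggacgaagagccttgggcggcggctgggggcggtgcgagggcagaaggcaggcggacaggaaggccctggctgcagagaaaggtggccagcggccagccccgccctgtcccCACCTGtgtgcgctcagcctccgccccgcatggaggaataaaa
Krt20: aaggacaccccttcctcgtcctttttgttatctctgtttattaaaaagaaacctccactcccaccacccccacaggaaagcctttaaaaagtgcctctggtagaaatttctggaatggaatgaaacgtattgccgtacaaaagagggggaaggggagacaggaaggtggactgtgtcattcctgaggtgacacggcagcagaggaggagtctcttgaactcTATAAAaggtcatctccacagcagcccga
The 3 simple keratins each held 1 E-box, as CACCTG, starting 111 bases before the RefSeq start in Krt8, 214 in Krt18 and 44 in Krt7. The Krt8 E-box falls in the bases that GENCODE counts as 5′ UTR, so it is not in the printed stretch. Krt20 held none and had a TATA box starting 29 bases before its start. Of 32851 promoters of this length, 17.2% held CAGGTG on either strand and 12.4% held TATAAA. The GC box GGGCGG occurred at 4 places in Krt7 and in none of the other 3, against 32.7% of all promoters. No window held the AP-1 site TGANTCA, which 6.75% of all promoters held. Krt7 had the highest GC content of the 4 windows of 250 bases, 66.0%, and Krt20 the lowest, 48.0%, while all promoters had a median of 52.4%.

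The libraries held 22268997 to 35172593 reads. Both replicate 1 libraries stood apart from the other 4 along the first principal component, which carried 55.8% of the variance of all genes tested. Mitochondrial reads made up 0.592% to 2.02% of the control libraries and 0.551% to 1.20% of the knockdown libraries. Jag1, the targeted gene, was read at 412, 983 and 847 normalised counts in control libraries 1, 2 and 3. Knockdown libraries 1, 2 and 3 were at 226, 321 and 557, lower than the control of the same number, with groups that overlapped. Normalised counts are reads divided by 1 size factor per library. Changes are given as log2 values, knockdown minus control. The test by limma on log2(normalised count + 1) called 0% of the 13997 genes tested and edgeR called 0 too. Before adjustment, p lay under 0.05 for 1021 genes in each of these tools. Calls of single genes below therefore come from DESeq2 with the replicate number as a term, fitted on the recovered reads, at an adjusted p below 0.05. That fit called 4.54% of the genes higher and 2.6% lower, and DESeq2 without the term called 0.722% higher. Jag1 fell by 1.02 (SE 0.27, adjusted p = 0.0063) in DESeq2 with the replicate term, and limma gave an adjusted p of 0.691. Limma and edgeR with the replicate term each called 0.0143% of the genes as higher, none of them a keratin, so with all 6 libraries no keratin passed in either tool.

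Counts over members leave out genes that reached 10 normalised counts in fewer than 2 libraries of either group, since such a gene had to differ to be tested. This left 5 members, all but Krt15, and 13363 of all genes. Of the 5 keratins, 3 rose by DESeq2 with the replicate term (Krt8, Krt19 and Krt20), against 4.27% of these genes higher and 2.63% lower, 0 fell, and Krt7 and Krt18 did not pass. Of the 3 calls, that of Krt8 was lost in DESeq2 without the replicate term (adjusted p = 0.138), while Krt19 and Krt20 kept theirs. With the authors' size factors, every knockdown library lay above every control library for the same 3 genes, which held for 5.84% of these genes (6.29% of all genes tested). Krt7 was likewise above its control in all 3 numbered pairs, as were the 3 called genes and 21.7% of these genes (22.3% of all genes tested), and Krt18 in 2 of the 3. The median log2 change of the 5 was 1.08 in limma, beside 0.00 for these genes. Pair by pair, the member medians came to 0.41 (pair 1), 1.66 (pair 2) and 1.08 (pair 3). The calls rested on pairs 2 and 3 together. When pair 2 was left out, that fit called 0 of the 5 and 0.464% of all genes higher, with Krt20 nearest at an adjusted p of 0.0670. Without pair 3 it called Krt20 alone (adjusted p = 0.0354), and 0.636% of all genes higher. Without pair 1 it called Krt7 as well (0.68, adjusted p = 0.0161), where 9.24% of all genes were called higher. Limma on replicates 2 and 3 alone, which called 6.04% of all genes higher, called Krt8, Krt19 and Krt20.

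Scaling bore on the separation of the groups, for the called genes too. With size factors from the spike-in reads, which made up 0.462% to 1.04% of the libraries, the median change of all genes moved from 0.00 to -0.18 in limma. All 6 keratins kept a positive mean change, from 0.16 for Krt18 to 2.54 for Krt15. In pair 1, however, Krt20 alone stayed above its control under that scaling, by 0.06. The other 5 lay below it, by -0.24 for Krt7 to -0.03 for Krt8 and Krt15, and the groups did not overlap for Krt20 alone, so that Krt8, Krt19 and Krt15 lost their separation. The pair 3 difference of Krt19 went from 1.82 to 2.49. Knockdown 3, not knockdown 2, was then the highest library for each of the 6 genes.

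**Figure D1:**
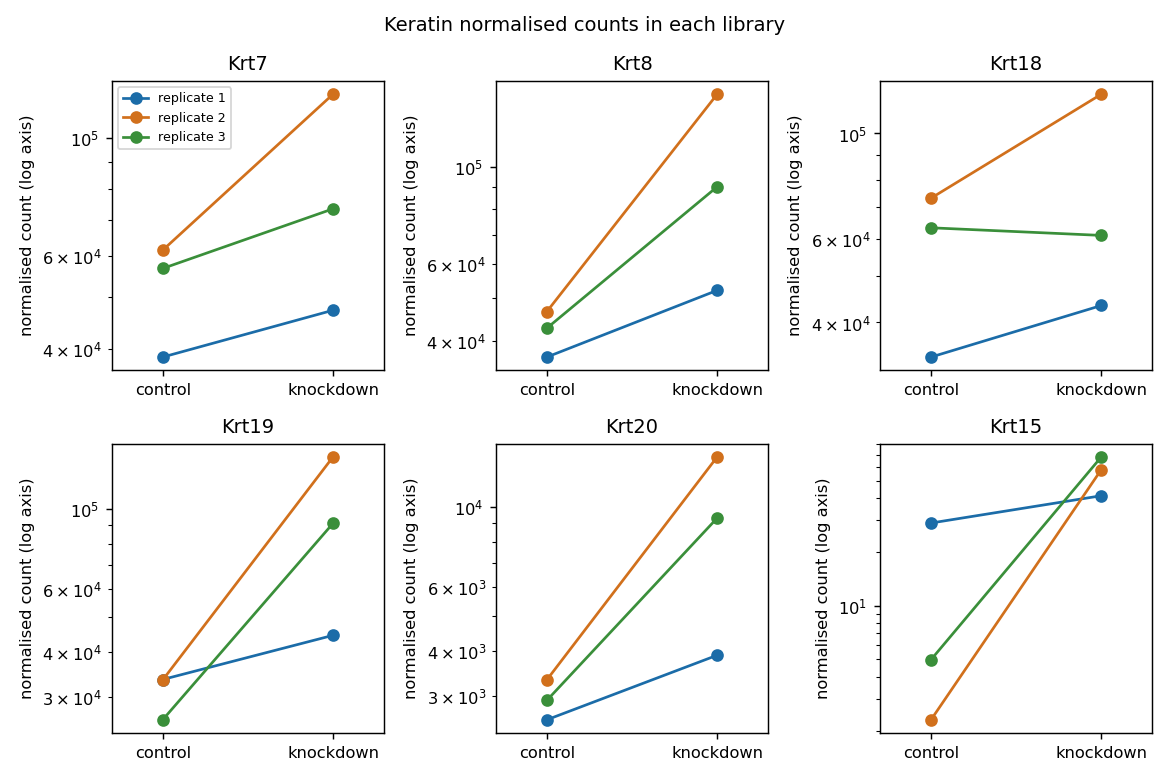
Normalised counts of the 6 keratins in each library (log axis, 1 panel per gene), with lines joining control and knockdown libraries of the same replicate number. The knockdown points of Krt8, Krt19, Krt20 and Krt15 all lie above their control points, whereas those of Krt7 and Krt18 overlap them; with spike-in scaling Krt20 alone stays apart.

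Among the type II simple keratins, Krt8, the obligate partner of Krt18, had normalised counts of 36672, 46631 and 42714 in controls 1, 2 and 3. In knockdowns 1, 2 and 3 it had 52158, 146942 and 90137. The lowest knockdown library, number 1, lay just above the highest control, number 2, and the other 2 knockdown libraries lay well above all controls. The means of 42006 ± 5017 (SD, n = 3) and 96412 ± 47703 (SD, n = 3) differed 2.30-fold. In DESeq2 with the replicate term Krt8 rose by 1.08 on the log2 scale (SE 0.25, adjusted p = 0.000867). DESeq2 without that term did not call it (adjusted p = 0.138), and in limma the adjusted p was 0.643 without the term and 0.154 with it. A processed pseudogene of Krt8, Krt8-ps on chromosome 7, was listed separately. It held 0.155% to 0.219% as many normalised counts as Krt8 did in the 6 libraries. An unstranded kit cannot tell Krt8 reads from those of the lincRNA gene Gm36026 on the opposite strand, or Krt7 reads from those of the antisense gene Gm671.

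Krt7, the second type II chain of ducts, had normalised counts of 38559, 61414 and 56711 in controls 1, 2 and 3 and of 47279, 121109 and 73529 in knockdowns 1, 2 and 3. Knockdown 1 lay below controls 2 and 3, so the groups overlapped. Krt7 did not pass in DESeq2 with the replicate term, at 0.55 (SE 0.20, adjusted p = 0.0780).

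Among the type I chains, Krt19 had normalised counts of 33490, 33394 and 25865 in controls 1, 2 and 3, a narrow range that did not separate control 1 from the others. Knockdowns 1, 2 and 3 had 44468, 139745 and 91254, all above the controls, with knockdown 1 nearest to them. The means of 30916 ± 4375 and 91822 ± 47641 (SD, n = 3 each) differed 2.97-fold. Krt19 rose by 1.44 (SE 0.31, adjusted p = 0.000401 in DESeq2 with the replicate term, and 0.0299 without it), while limma gave adjusted p = 0.606.

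Krt18, the partner of Krt8, had groups that overlapped. It was read at 33826, 73079 and 63304 normalised counts in control libraries 1, 2 and 3. Knockdown libraries 1, 2 and 3 were at 43433, 120983 and 61007. Knockdown 3 lay slightly below control 3, knockdown 1 lay below 2 of the 3 controls, and knockdown 2 alone exceeded all controls. The change of 0.34 (SE 0.21, adjusted p = 0.380 in DESeq2 with the replicate term) did not pass, and without knockdown 2 it was -0.07 in limma (adjusted p = 0.994).

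Krt20, the intestinal type I keratin, had normalised counts of 2577, 3324 and 2916 in controls 1, 2 and 3 and of 3886, 13722 and 9301 in knockdowns 1, 2 and 3. Every knockdown library was above every control, by 1.51-fold, 4.13-fold and 3.19-fold within pairs 1, 2 and 3. Krt20 rose by 1.44 (SE 0.29, adjusted p = 7.98e-05 in DESeq2 with the replicate term), and DESeq2 without that term also called it (adjusted p = 0.0412). Limma gave an adjusted p of 0.614 without the replicate term and 0.147 with it. Other genes of intestinal differentiation were measured beside it. Of the 9 such markers 5 were listed, and 4 of these 5 rose by DESeq2 with the replicate term, against 4.54% of all genes tested. They were villin (Vil1, a microvillus protein) by 1.44, the cadherin Cdh17 by 1.29, the galectin Lgals4 by 0.98 and the transcription factor Cdx2 by 0.70. The groups of Cdh17 and Lgals4 overlapped. DESeq2 without the replicate term called Vil1 (adjusted p = 0.00579) but not Cdx2 (0.128), Cdh17 (0.620) or Lgals4 (0.620). The goblet cell mucin Muc2 went the other way, at 0.961-fold, 0.535-fold and 0.0660-fold in pairs 1, 2 and 3. Its change of -1.50 (SE 0.98, adjusted p = 0.437 in DESeq2 with the replicate term) did not pass. The enterocyte genes Fabp1, Fabp2, Alpi and Sis were not listed in the table. With the authors' size factors, the summed normalised count of this marker list ran from 46377 to 71737 in the controls and from 86019 to 138053 in the knockdown. Most of this sum was Lgals4 and Cdh17, and its part in the Krt20 result was not tested. In bulk RNA a change in the number of cells of a type and a change in RNA per cell cannot be told apart.

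Krt15, the basal keratin, was scarce. It was counted in 35, 2 and 4 reads in controls 1, 2 and 3 and in 47, 47 and 89 reads in knockdowns 1, 2 and 3. After division by the size factors the controls stood at 29.0, 2.30 and 4.98 and the knockdown at 41.2, 57.8 and 68.0. Control 1 was far above the other controls and close to knockdown 1, and the groups did not overlap. The ratio within pair 1 was 1.42 (95% counting interval 0.898 to 2.27), which includes no difference. In pairs 2 and 3 the ratios were 25.1 (6.58 to 213.7) and 13.6 (5.15 to 51.2), intervals that cover counting error only and whose width comes from the few control reads. Since Krt15 entered the test only through the knockdown, its fitted values are a description and support no count. The change was 2.87 in DESeq2 with the replicate term (SE 0.89, adjusted p = 0.0229), where leaving out pair 2 or pair 3 gave adjusted p of 0.894 and 0.574. DESeq2 without the term gave 0.315, edgeR 0.658, and limma 0.606 without the term and 0.164 with it. Limma without control 1, which called 1.5% of all genes higher, gave 3.64 (adjusted p = 0.0313). Squamous markers, which share the basal lineage, were mostly not listed: 3 of 9 were in the table, and Trp63, Krt5, Krt6a and Krt17 were not. Their sum, led by the cornified envelope gene Sprr1a in every library but control 1, ran from 485 to 3942 in the controls and from 1768 to 22227 in the knockdown, ranges that overlap. Sprr1a itself rose by 3.08 (SE 0.33) in DESeq2 with the replicate term, where its adjusted p was 1.12e-17. It was not called by DESeq2 without that term (adjusted p = 0.303) or by limma (0.693). Its groups overlapped, with control 2 at 2723 normalised counts and knockdown 1 at 947. Sprr1a was 4.55-fold, 7.97-fold and 16.6-fold higher in pairs 1, 2 and 3. The listed squamous marker Ivl moved in no steady direction, with knockdown to control ratios of 3.07, 0.400 and 1.05 in pairs 1, 2 and 3. DESeq2 with the replicate term put the Ivl change at 0.12, with an SE of 0.46 and an adjusted p of 0.943. Krt14, also on that list, was not called by this fit either. The part of these genes in the Krt15 value was not tested.

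**Figure D2:**
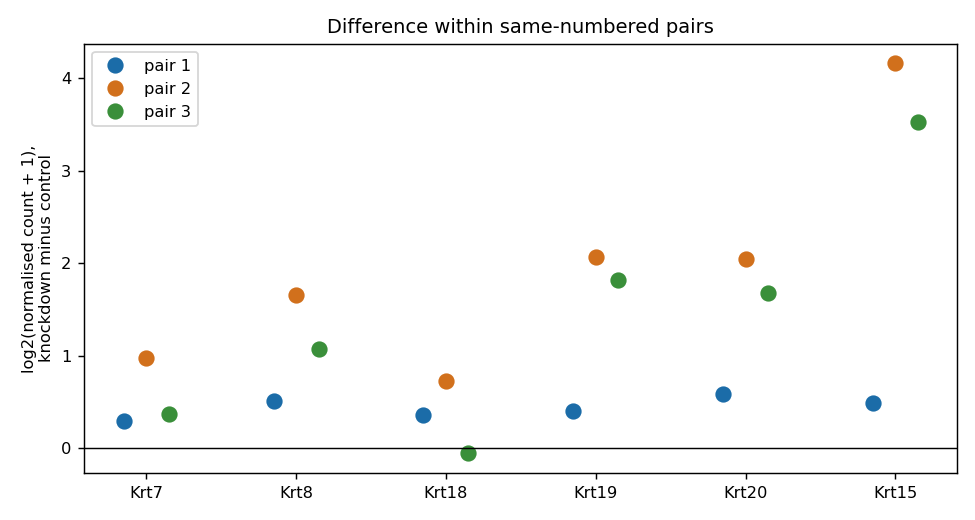
Difference in log2(normalised count + 1) between knockdown and control libraries of the same replicate number (points, 3 pairs) for each keratin, with 0 as the line of no difference. Pair 1 lies between 0.29 and 0.59 for all 6 genes (with spike-in scaling, between -0.24 and 0.06), whereas pairs 2 and 3 spread from -0.05 (Krt18, pair 3) to 4.16 (Krt15, pair 2).

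The members differed in how far replicate number and hairpin accounted for their spread. Replicate number held 83.5% of the variance of log2 values of Krt18 and 63.7% of Krt7, beside a median of 60.5% over all genes tested. For Krt8, Krt19, Krt20 and Krt15 it held 29.0%, 15.1%, 25.2% and 11.0%. The hairpin held 59.8%, 67.4%, 63.2% and 66.2% of the variance of these 4, against 8.87% for Krt18, 27.7% for Krt7 and a median of 14.9% over all genes. Krt15 passed the filter only through the knockdown, which favours a large hairpin share, so its value cannot be set against that median. These shares describe 6 libraries and are not a test. Profiles over the 6 libraries, each centred on its own mean, were compared by their root mean square difference on the log2 scale. Krt19 and Krt20 were the most alike pair of members (0.18), followed by Krt7 and Krt18 (0.19), whereas the partners Krt8 and Krt18 stood at 0.45. Krt15 was at least 1.18 from every other member. Among 10903 genes with a mean normalised count of at least 50, those nearest in pattern were Nfkbia (0.07) and Lynx1 (0.08) for Krt7, Anxa2 (0.12) and Mfsd13a (0.14) for Krt8, and Emp2 (0.09) and Fam162a (0.09) for Krt18. For Krt19 they were Tm6sf2 (0.17) and Krt20 (0.18), for Krt20 Irf5 (0.14) and Hmox1 (0.17), and for Krt15 Blnk (0.17) and Gipc2 (0.23).

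Levels of different genes can be compared per kilobase of transcript. Per kb of exon, Krt18, Krt8 and Krt19 were among the most abundant of the 13964 genes ranked, at places 5 to 26, 7 to 49 and 6 to 81 over the 6 libraries. Krt19 moved from places 42, 63 and 81 in controls 1, 2 and 3 to 29, 6 and 6 in the knockdown, and Krt20 from places 836 to 1101 in the controls to 199 to 749. Krt15 stood at place 10335 or beyond in every library. In the controls the order by mean per kb of exon was Krt18 (39482 ± 14220 normalised counts per kb, SD, n = 3), Krt8 (21453 ± 2563), Krt19 (16667 ± 2359), Krt7 (7409 ± 1712), Krt20 (1525 ± 194) and Krt15 (6.84 ± 8.32). Each neighbour in this order differed from the next by more than the larger SD of both. In the knockdown Krt18 (52290 ± 28296), Krt19 (49500 ± 25683) and Krt8 (49240 ± 24363) lay within 1 SD of each other. The place of Krt7 depends on its length. The annotated exons of Krt7 cover 7049 bases, while its coding sequence has 1371, close to the 1470 of Krt8. Per kb of coding sequence Krt7 stood at 38095 ± 8803 in the controls, above Krt8 (28575 ± 3413) and Krt19 (25572 ± 3619) and within the spread of Krt18 (44709 ± 16103). Under either length Krt20 and Krt15 kept places 5 and 6.

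The 6 keratins together went from a summed 67147, 103112 and 89373 normalised counts per kb of exon in controls 1, 2 and 3 to 89582, 258906 and 152979 in knockdowns 1, 2 and 3. Knockdown 1 lay between the controls, and with the authors' size factors knockdown 2 was the highest library for this sum and for 5 of the 6 genes, all but Krt15. With spike-in scaling the sums were 91074, 100892 and 82244 in the controls and 83958, 158482 and 223698 in the knockdown. The keratins took 0.577% to 0.789% of all gene reads in the controls and 0.737%, 1.92% and 1.22% in knockdowns 1, 2 and 3. The difference in mean log2 sum was 0.84, and without knockdown 2 it was 0.46. No p is given for this sum.

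**Figure D3:**
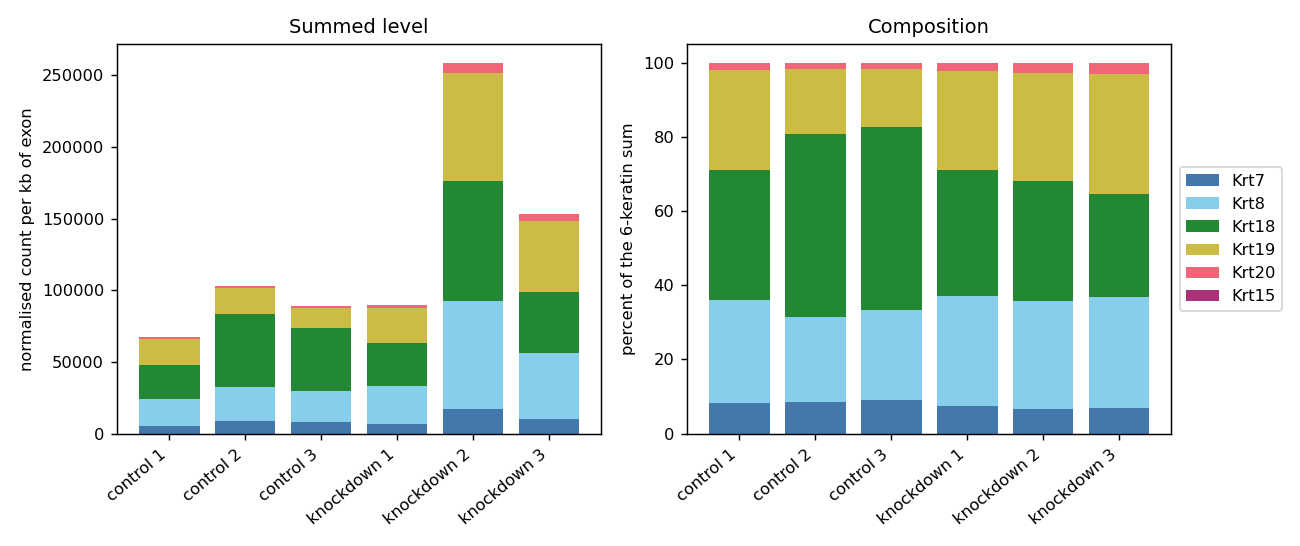
Summed level of the 6 keratins per library in normalised counts per kb of exon (left, stacked bars from 0) and the share of each keratin in that sum in percent (right). Krt18 makes up 35.1% of the sum in control 1, 49.3% in controls 2 and 3 and 27.8% to 33.7% in the knockdown, and Krt15 is too scarce to be seen.

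The make-up of the keratin pool differed between the groups in pairs 2 and 3. Krt18 made up 35.1%, 49.3% and 49.3% of the summed level per kb of exon in controls 1, 2 and 3, against 33.7%, 32.5% and 27.8% in knockdowns 1, 2 and 3. The share of Krt19 was 26.9%, 17.5% and 15.6% in the controls and 26.8%, 29.1% and 32.2% in the knockdown. Pair 1 hardly differed in either share. Krt20 made up 1.67% to 1.99% of the pool in the controls and 2.25% to 3.16% in the knockdown, ranges that did not overlap.

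Whether the partner chains moved in step was asked with ratios within a library, which do not depend on the size factor. Krt8 per Krt18, each per kb of exon, was 0.796, 0.468 and 0.495 in controls 1, 2 and 3, against 0.881, 0.891 and 1.08 in knockdowns 1, 2 and 3. Every knockdown library was above every control library, with control 1 close to knockdowns 1 and 2. The mean log2 ratio differed by 0.74, a 1.67-fold difference (exact two-sided permutation test p = 0.1, the smallest that 3 against 3 libraries allow). Flipping signs of the pair differences in an exact test left p = 0.25, also its smallest value, and in replicates 2 and 3 alone the difference was 1.03. Krt19 per Krt18 ran from 0.317 to 0.767 in the controls and from 0.793 to 1.16 in the knockdown, again without overlap, while Krt7 per Krt18 overlapped (0.171 to 0.232 and 0.204 to 0.246). Of the 5 ratios between members that were computed, the Krt8 to Krt18 ratio alone was tested.

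As whole classes, type II chains (Krt7 and Krt8) per type I chains (Krt18, Krt19, Krt20 and Krt15) stood at 0.563, 0.461 and 0.502 in controls 1, 2 and 3 and at 0.593, 0.553 and 0.585 in knockdowns 1, 2 and 3. The groups overlapped, with a log2 difference of 0.19 (exact two-sided permutation test p = 0.2). Computed per kb of coding sequence, the difference had the other sign, -0.05 (exact permutation test p = 0.5). The direction of the class ratio thus turned with the length given to Krt7.

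**Figure D4:**
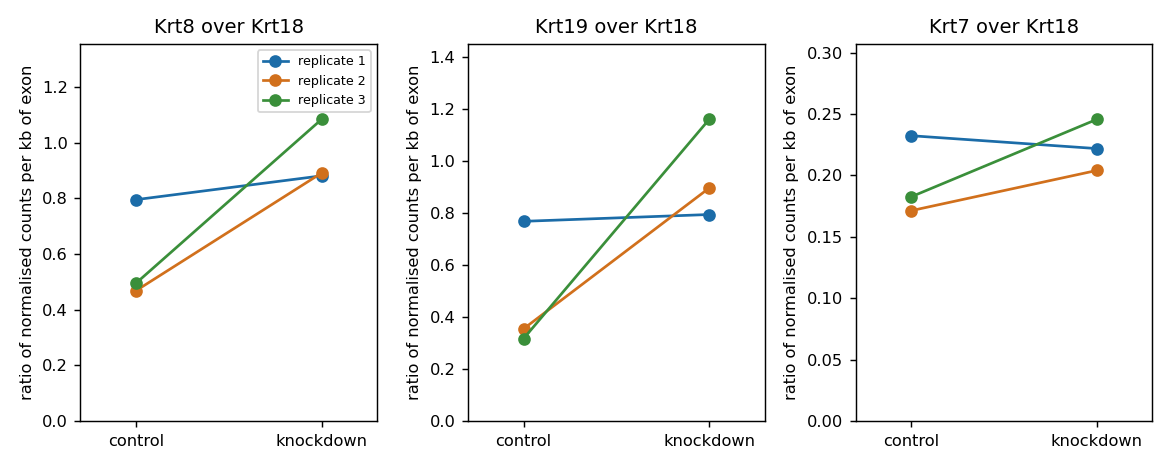
Ratios of normalised counts per kb of exon within each library for Krt8, Krt19 and Krt7 over Krt18 (axes from 0), with lines joining the same replicate number. The Krt8 and Krt19 ratios are higher in every knockdown library than in every control library, with pair 1 changing little, and the Krt7 ratios overlap.

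The rest of the keratin family was sparse in these organoids. Of 48 other keratin genes looked for, 11 were listed and tested. Krt14 and Krt16 reached 10 normalised counts in fewer than 2 control libraries. Of the other 9, 2 rose and 0 fell by DESeq2 with the replicate term, against 4.27% of all genes so filtered called higher and 2.63% lower. Their median log2 change in limma was 0.03. Krt13, a keratin of internal stratified epithelia and the neighbour of Krt15, had normalised counts of 420, 32.2 and 73.5 in controls 1, 2 and 3 and of 596, 829 and 1306 in knockdowns 1, 2 and 3. As with Krt15, control 1 was far above the other controls, and the groups did not overlap. Krt13 rose by 3.27 (SE 1.05, adjusted p = 0.0308 in DESeq2 with the replicate term). Krt80, a type II keratin, had 356, 673 and 613 in the controls and 602, 1579 and 1512 in the knockdown, overlapping groups, and rose by 1.10 (SE 0.22, adjusted p = 5.64e-05 in the same fit). Limma gave adjusted p of 0.606 for Krt13 and 0.668 for Krt80. Krt23, the most abundant of the others per kb of exon, was at 4644 ± 1847 and 4571 ± 1469 normalised counts (SD, n = 3 each) with a change of 0.02 (SE 0.22). Krt79 followed the replicate number, at 4680 and 1383 in control 1 and knockdown 1 and at 220.5 to 380 in the other 4 libraries. Krt14, a basal keratin, was listed at 3.74 to 12.4 normalised counts in the controls and 6.14 to 71.1 in the knockdown and did not pass (adjusted p = 0.417).

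Genes that anchor or regulate keratin filaments had 18 tested members of 21 sought, with a median change of 0.53 in limma, beside 0.00 for all genes. By DESeq2 with the replicate term 5 rose, 0 fell and the other 13 missed the threshold, against 4.54% of all genes tested called higher and 2.6% lower. The 5 were the 14-3-3 protein stratifin (Sfn) by 2.13, the desmosomal proteins plakophilin 3 (Pkp3) by 1.72, plakoglobin (Jup) by 1.20 and desmoplakin (Dsp, which ties keratins to desmosomes) by 1.10, and Fam83h, a regulator of keratin organisation, by 0.55. Their adjusted p in that fit ran from 2.26e-07 to 0.0324. DESeq2 without the replicate term called Jup (adjusted p = 0.00014) but not Fam83h (0.0694), Pkp3 (0.0933), Dsp (0.204) or Sfn (0.237). Limma gave an adjusted p of 0.604 or more for each of the 5. Jup had normalised counts of 3513, 3498 and 3061 in controls 1, 2 and 3 and of 6273, 8974 and 8047 in knockdowns 1, 2 and 3, a gap between the groups wider than the spread within either. The cytolinker plectin (Plec) did not pass at 0.54 (adjusted p = 0.163).

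**Figure D5:**
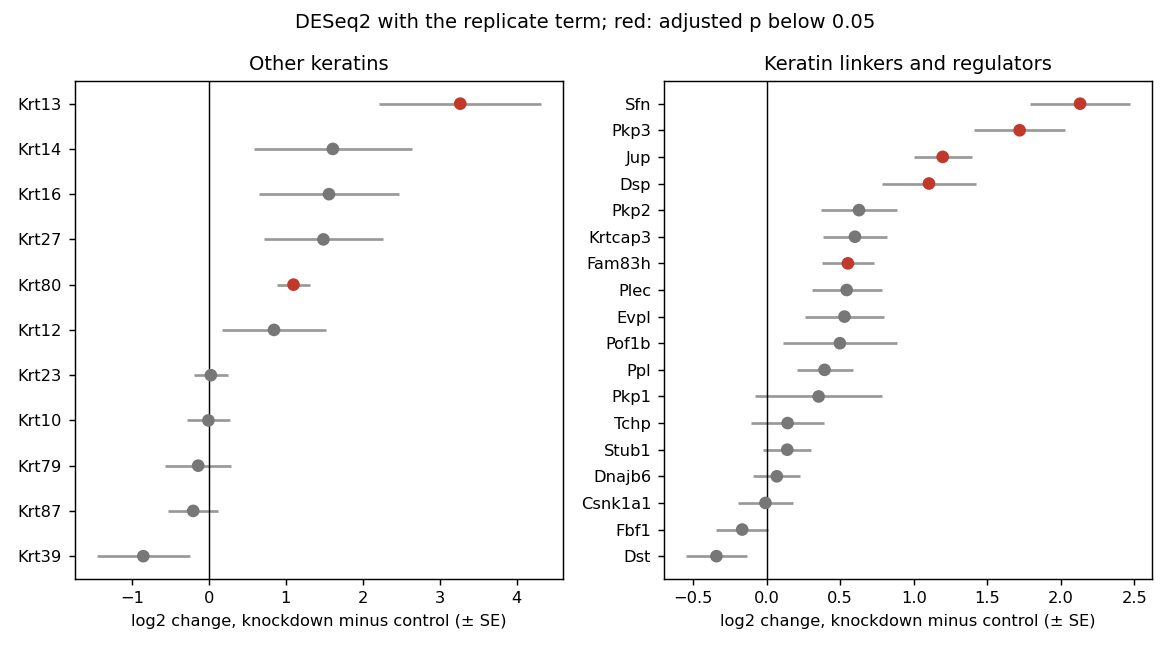
Log2 change between knockdown and control, with its SE, from DESeq2 with the replicate term, for the 11 other keratins tested (left) and the 18 keratin linkers and regulators tested (right), with red points at an adjusted p below 0.05. Krt13 and Krt80 on the left and Sfn, Pkp3, Jup, Dsp and Fam83h on the right are the red points, all above 0.

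Among other intermediate filament genes, of which 10 were tested, 1 rose (lamin B1, Lmnb1, by 0.78) and 0 fell by DESeq2 with the replicate term. The same fit called 4.54% of all genes tested higher and 2.6% lower. The median change of these filament genes was -0.28 in limma. Vimentin (Vim), the filament of mesenchymal cells, had 15012, 19707 and 12816 normalised counts in controls 1, 2 and 3, against 7179, 18273 and 10619 in knockdowns 1, 2 and 3. Its groups overlapped and it did not pass (adjusted p = 0.237).

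Of 16 tested transcription factors known to act on keratin genes, Ovol1 (1 control library at 10 normalised counts or more) and Snai2 (1 knockdown library) entered the test mainly through 1 group and are left out of the count. Of the other 14, 2 rose and 2 fell by DESeq2 with the replicate term, against 4.27% of all genes so filtered called higher and 2.63% lower. Grhl2 rose by 2.01 and Cdx2 by 0.70, both regulators of epithelial genes. The repressors Zeb2 and Zeb1 fell by 2.47 and by 1.21 on the log2 scale. DESeq2 without the replicate term called Zeb2 (adjusted p = 0.00533) but not Cdx2 (0.128) or Zeb1 (0.552), and gave no adjusted p for Grhl2. Limma gave an adjusted p of 0.604 or more for each of them. Grhl2 had 426, 10.3 and 18.7 normalised counts in controls 1, 2 and 3, against 502, 95.8 and 128 in knockdowns 1, 2 and 3. Cdx2 and Zeb2 had groups that did not overlap, Zeb2 in the direction in which 5.44% of all genes did so, and those of Grhl2 and Zeb1 overlapped. As description, the repressor Snai2 stood at 27.3 to 134.5 normalised counts in the controls and 6.14 to 33.6 in the knockdown, and Ovol1 at 4.98 to 43.9 and 84.2 to 89.7. Cdx2, a factor of intestinal identity, had 3141, 2958 and 2653 normalised counts in controls 1, 2 and 3, against 4147, 4304 and 5969 in knockdowns 1, 2 and 3. Klf5, Sp1 and Sox9 did not pass. These factors and the printed E-boxes are set side by side as measurements, and binding was not measured.

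The labelled cell type was checked against markers. All 9 duct markers were listed, with sums from 138125 to 350843 normalised counts in the controls and from 164863 to 370716 in the knockdown, overlapping ranges that turned on the osteopontin gene Spp1. Spp1 had 21687, 221762 and 211707 normalised counts in controls 1, 2 and 3, against 17682, 33426 and 18015 in knockdowns 1, 2 and 3, and did not pass (adjusted p = 0.0840). Without Spp1 and the members Krt7 and Krt19, the sum of the other 6 ran from 34273 to 44389 in the controls and from 53362 to 76436 in the knockdown, which did not overlap. By DESeq2 with the replicate term, 3 duct markers rose (Epcam by 1.37, Muc1 by 0.98 and Krt19) and 1 fell (the chloride channel gene Cftr by 0.74). Of all genes tested, that fit called 4.54% higher and 2.6% lower. The part of the duct markers in the keratin values was not tested. Of 8 fibroblast markers 2 were listed, with sums of 28.9 to 45.5 over all libraries, and of 8 immune markers 1, Cd68, at 98.6 to 136 in the controls and 117 to 988 in the knockdown. Cd68, a macrophage lysosome gene, rose by 1.67 (adjusted p = 0.00801 in the same fit), the other 7 immune markers were not listed, and its part in the keratin values was not tested. Acinar and endothelial markers had 1 listed gene each, with sums of at most 62.1, and of 5 endocrine markers 0 were listed. The mesothelium, which also makes simple keratins, had 2 of 5 markers listed, and its sum, almost all Msln, was 4401 to 22376 in the controls and 3182 to 15984 in the knockdown. Msln fell by 0.80 (adjusted p = 0.0217 in DESeq2 with the replicate term) and was lower in all 3 pairs. The other listed marker, Lrrn4, was scarce and went the other way, at 1.15 to 8.28 normalised counts in the controls and 12.3 to 31.3 in the knockdown. Lrrn4 entered the test only through the knockdown. The part of the mesothelium markers in the keratin values was not tested.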

How the data were processed

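The authors deposited a signal table of normalised counts, in which each library's reads are divided by 1 size factor. Whole reads could be recovered for 100% of values (tolerance 0.001 read), and DESeq2's median-of-ratios method over all listed features returned the same factors. STAR 2.5.2b, DESeq2 1.32.0, Trimmomatic and GRCm38 are named in the submitters' processing notes, and the counting tool and annotation are not given in the sources used here. Per the labels' protocols, total RNA went into a TruSeq RNA v2 kit, which does not mark strand. The 6 deposited tables were identical, and 5 copies were left out. Identifiers were matched to GENCODE M21 (GRCm38) for 14219 of 14254 genes. The 48 ERCC spike-ins entered no test.

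Groups came from the sample titles. The test was limma-trend (limma 3.58.1, R 4.3.3) on log2(normalised count + 1) for 13997 genes with at least 10 in at least 3 libraries, with Benjamini-Hochberg adjustment over all of them at 0.05. Alternatives were edgeR 4.0.16 and DESeq2 1.42.0 on the recovered reads, each also with the replicate number as a term, other scalings, pseudocounts and filters, and left-out libraries. These were tested on simulated data, in which DESeq2 with the replicate term recovered the most changed genes and also made the most false calls, more than limma or edgeR with or without that term. The simulated counts were drawn from the means of the numbered pairs, with the spread left by a fit with the replicate term. A replicate effect was thus built in, so the simulation cannot decide between fits with and without that term. DESeq2 with the replicate term was used for calls because earlier results showed that limma called none. It gave no adjusted p for 543 genes.

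Deviations from the group means correlated at 0.68, 0.57 and 0.44 for libraries numbered 1, 2 and 3, so the numbers were treated as pairs, though control 3 with knockdown 2 (0.38) and control 2 with knockdown 3 (0.37) passed the threshold of 0.1 too. Deviations within a group sum to 0, so the number 1 libraries, which stand apart, by themselves push libraries 2 and 3 towards positive correlation. Pairs 2 and 3 therefore cannot be told from their swap, and values given for them rest on the library numbers alone. The p-values measure the spread between the libraries, which may be technical. Members and lists were chosen with earlier results of these data known. Genes named are Jag1, the members, other keratins that were called or abundant, up to 4 called genes of each list and the 2 genes nearest in pattern to each member. Further genes (Krt14, Krt16, Krt23, Krt79, Plec, Fam83h, Vim, Muc2, Zeb1, Klf5, Sp1, Sox9, Spp1, Ivl and Lrrn4) were named after their values were seen. Lengths are unions of annotated exons, or coding lengths of the longest CCDS transcript, an alternative chosen after the data were seen.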

Additional observations from a re-analysis of the deposited data

How the results depend on the processing

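Krt7, Krt8, Krt19, Krt20 and Krt15 kept a positive change under every alternative run, over ranges of 0.20 to 0.88, 0.71 to 1.46, 1.05 to 1.94, 1.04 to 1.95 and 2.01 to 4.16 on the log2 scale. Krt18 ranged from -0.066 without knockdown 2 to 0.67. Calls depended on the tool and on which pair was left out. In limma 0 genes were called, as with TMM scaling, pseudocounts of 0.5 and 5, no filter, a filter at 50 (which Krt15 did not pass) and in edgeR. The number called was 116 with spike-in scaling, 174 in DESeq2, 2 in both limma and edgeR with the replicate block, 1000 in DESeq2 with that block, and 1346 in limma on replicates 2 and 3 only. Leaving out a library or a pair gave 0 to 2178 called genes: limma gave 294 without control 1 and 1 without knockdown 1, and DESeq2 with the replicate block gave 2178, 100 and 128 without pairs 1, 2 and 3. In limma on replicates 2 and 3 only, Krt8, Krt19 and Krt20 passed (adjusted p of 0.0334, 0.0131 and 0.0101). Krt15 had an adjusted p of 0.0114 there, a description only, since it entered the test only through the knockdown. The type II to type I ratio was reversed with coding length, at -0.052. The log2 differences of the Krt8 to Krt18 ratio and of the summed level stayed positive without each library, from 0.59 to 0.98 and from 0.46 to 1.22. With the replicate block (an exact sign-flip permutation test over pairs) the differences of both ratios, 0.74 and 0.19, had p = 0.25. Depth limits Krt15, with 2 and 4 reads in controls 2 and 3.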
